A study of Mus musculus with 8 samples.

Results

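Expression of 10 genes of the primed epiblast and the primitive streak was examined in mouse embryonic stem cells (ESCs) depleted of HIRA complex members. The genes were taken by symbol from a list of known markers (Fgf5, Otx2, Pou3f1, T, Eomes, Mixl1, Gsc, Fgf8, Cer1 and Mesp1). Their measured values did not enter the rule, but the list was chosen with earlier results of these data known. All 10 were present among the 55418 genes of the count tables. The series comprised 8 RNA-seq libraries of E14 ESCs, a mouse line grown feeder-free on gelatin in serum with leukaemia inhibitory factor (LIF). There were 2 libraries each of Control, Hira_KD, Ubn1_KD and Ubn2_KD cells. All cells were transfected with a pSuper puro plasmid, which carried an shRNA against Hira, Ubn1 or Ubn2 in the knockdown groups, and were selected with puromycin for 3 days. For the Control group the sources differ, since a luciferase shRNA is described for knockdowns in general and wild-type ESCs for the RNA-seq, so what its plasmid carried is not settled. The cells were transient transfectants of a single line, and each knockdown is a reduction rather than a loss of the gene. Nothing in the labels says that replicate libraries came from separate cultures, so p-values measure the spread between these libraries, which may be technical.

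HIRA is a histone chaperone complex that places the histone variant H3.3 in chromatin outside DNA replication. Hira is its scaffold, and Ubn1 and Ubn2 are related subunits that bind H3.3. ESCs kept in serum and LIF correspond to the naive inner cell mass, with a fraction of cells drifting toward the next stage. When ESCs leave the naive state they pass through a formative and then a primed stage that resembles the epiblast after implantation, marked by Otx2, Fgf5 and Pou3f1. Nodal, Wnt and Fgf signalling then induces the primitive streak at the posterior epiblast, where T and Eomes mark the first mesoderm and endoderm precursors and Mixl1, Gsc, Mesp1 and Fgf8 follow.

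To show the regulatory sequence of the members on which the results turn, the windows around the RefSeq transcription starts of Otx2, T and Eomes are given (build GRCm38.p6, 250 bases before to 50 after the start, 5′ to 3′). Capitals mark matches, on either strand, to 5 short motifs named with the windows. For Otx2, RefSeq lists 4 starts, and the most upstream is shown, on chr14:48667595-48667894, minus strand. The counts per gene do not tell which start was used. The T window lies on chr17:8434173-8434472 and the Eomes window on chr9:118477939-118478238, both on the plus strand.
Otx2: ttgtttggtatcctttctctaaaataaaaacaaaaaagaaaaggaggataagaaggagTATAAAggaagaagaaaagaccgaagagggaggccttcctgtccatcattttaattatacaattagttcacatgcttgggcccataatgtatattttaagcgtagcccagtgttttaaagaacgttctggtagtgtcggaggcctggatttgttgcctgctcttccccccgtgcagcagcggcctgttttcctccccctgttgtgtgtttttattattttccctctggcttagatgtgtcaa
T: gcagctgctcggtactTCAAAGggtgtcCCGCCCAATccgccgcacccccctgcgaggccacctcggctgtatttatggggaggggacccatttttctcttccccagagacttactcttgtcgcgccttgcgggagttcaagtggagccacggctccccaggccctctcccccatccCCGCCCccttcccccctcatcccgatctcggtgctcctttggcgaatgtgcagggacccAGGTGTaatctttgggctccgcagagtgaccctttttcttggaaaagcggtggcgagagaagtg
Eomes: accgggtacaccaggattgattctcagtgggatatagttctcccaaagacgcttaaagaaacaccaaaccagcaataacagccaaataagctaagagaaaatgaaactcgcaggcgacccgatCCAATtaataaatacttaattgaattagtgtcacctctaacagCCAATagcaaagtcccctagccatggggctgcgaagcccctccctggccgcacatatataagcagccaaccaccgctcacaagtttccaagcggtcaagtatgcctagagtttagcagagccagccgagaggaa

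The motifs searched were the TATA box TATAAA, the CCAAT box with the letters in its name, and the GC box core, which reads GGGCGG. The other 2 were the core recognised by TCF/LEF factors of the Wnt pathway, read as CTTTGA, and part of the site that T-box factors bind, read as AGGTGT. The T window held 5 matches, 2 of them to the GC box core and 1 each to the CCAAT box, the TCF/LEF core and the T-box part, and its CCAAT match shares 2 bases with a GC box match. Over all 32851 windows of this length, the TCF/LEF core was found in 16% and the T-box part in 13.7%. Eomes held 2 CCAAT matches, a motif present in 37.4% of windows, and none of the other motifs. The Otx2 window shown held 1 TATA box match, a motif present in 13.6% of windows, and this match lies far upstream of the start. The GC box core, with no match in the Otx2 and Eomes windows shown, was found in 35.7% of all windows. G and C made up 61.7% of the T window, 47.3% of the Eomes window and 41.7% of the Otx2 window, against a median of 52.7% over all windows. These matches describe the sequence and were not tested for function. Windows were at hand for 7 of the 10 genes, and none for Pou3f1, Mixl1 and Fgf8.

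Library totals ranged from 19710040 to 32706053 counts, so the level that 3 counts represent lay between 0.0917 and 0.152 CPM (counts scaled to a common library size). Floors and intervals here cover counting error only. These floors use unscaled library totals, while the CPM values of genes use library sizes scaled by edgeR's TMM method. As a check of the labels, Hira fell from 93.5 ± 5.76 CPM in controls to 10.2 ± 0.261 in Hira_KD (SD, n = 2 libraries, as throughout). Ubn1 fell from 48.5 ± 6.33 to 23.8 ± 0.0369 CPM in Ubn1_KD, and Ubn2 from 50.9 ± 1.12 to 27.3 ± 3.92 CPM in Ubn2_KD. The ESC label was checked with the core pluripotency genes Pou5f1, Sox2, Nanog, Sall4, Utf1 and Lin28a, whose summed level was 2562 to 2790 CPM over the 8 libraries. The 2 Ubn2_KD libraries stood apart in markers of other tissues. Summed over 11 heart muscle genes the level was 268 and 408 CPM in these libraries and 29.8 to 50.5 CPM in the other 6, and 8 red blood cell genes summed to 5.25 and 8.73 CPM against 0.614 to 1.14 CPM. Actc1, Myh7 and Tnnt2, which encode proteins of the contractile filament, reached 49.7 and 85.3, 42.2 and 61.9, and 24.1 and 38.9 CPM in the Ubn2_KD libraries. The part of this RNA in the Ubn2_KD results below was not tested. In bulk RNA, fewer cells expressing a gene and less RNA per cell cannot be told apart.

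Levels of the 10 genes in control ESCs spanned a wide range, and 1 of them was not detected. On a scale per length of exon (RPKM, CPM divided by kilobases of annotated exon), Otx2 had the highest control level of the 10 genes, at 4.67 ± 0.0281, above 73.7% of the genes with a count in any library. Eomes followed at 2.16 ± 0.0381 RPKM and Pou3f1 at 1.80 ± 0.440 RPKM, and these neighbours differed by less than the spread of Pou3f1. Fgf8 (0.539 ± 0.104 RPKM) and Mesp1 (0.414 ± 0.0625 RPKM) were the next pair. T stood at 0.224 ± 0.00995 RPKM, Gsc at 0.195 ± 0.00449 RPKM and Mixl1 at 0.107 ± 0.0616 RPKM. Fgf5, the most used marker of the primed state, was near the bottom with 0.0126 ± 0.0178 RPKM, from 2 reads in both control libraries together. Cer1, a secreted Nodal and BMP antagonist of the anterior visceral endoderm and early definitive endoderm, had 0 counts in all 8 libraries. A count of 0 allows a level of up to 0.0917 to 0.152 CPM on unscaled totals, depending on the library. Otx2, Eomes and Pou3f1 had between 93 and 1011 counts in each library, while the other 7 genes had 25 counts or fewer.

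**Figure D1:**
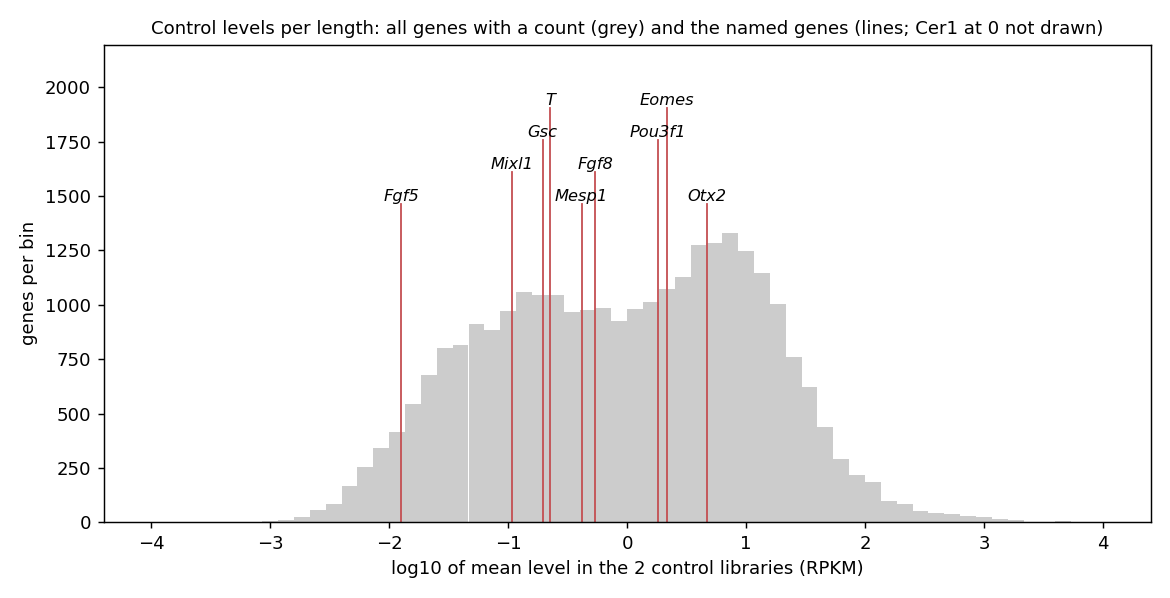
Distribution of mean control levels over the genes with a count in the 2 control libraries (grey, log10 RPKM), with vertical lines for the members. Otx2, Eomes and Pou3f1 lie above the median of these genes (1.07 RPKM), and the other 6 drawn lie below it, with Fgf5 lowest.

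**Figure D2:**
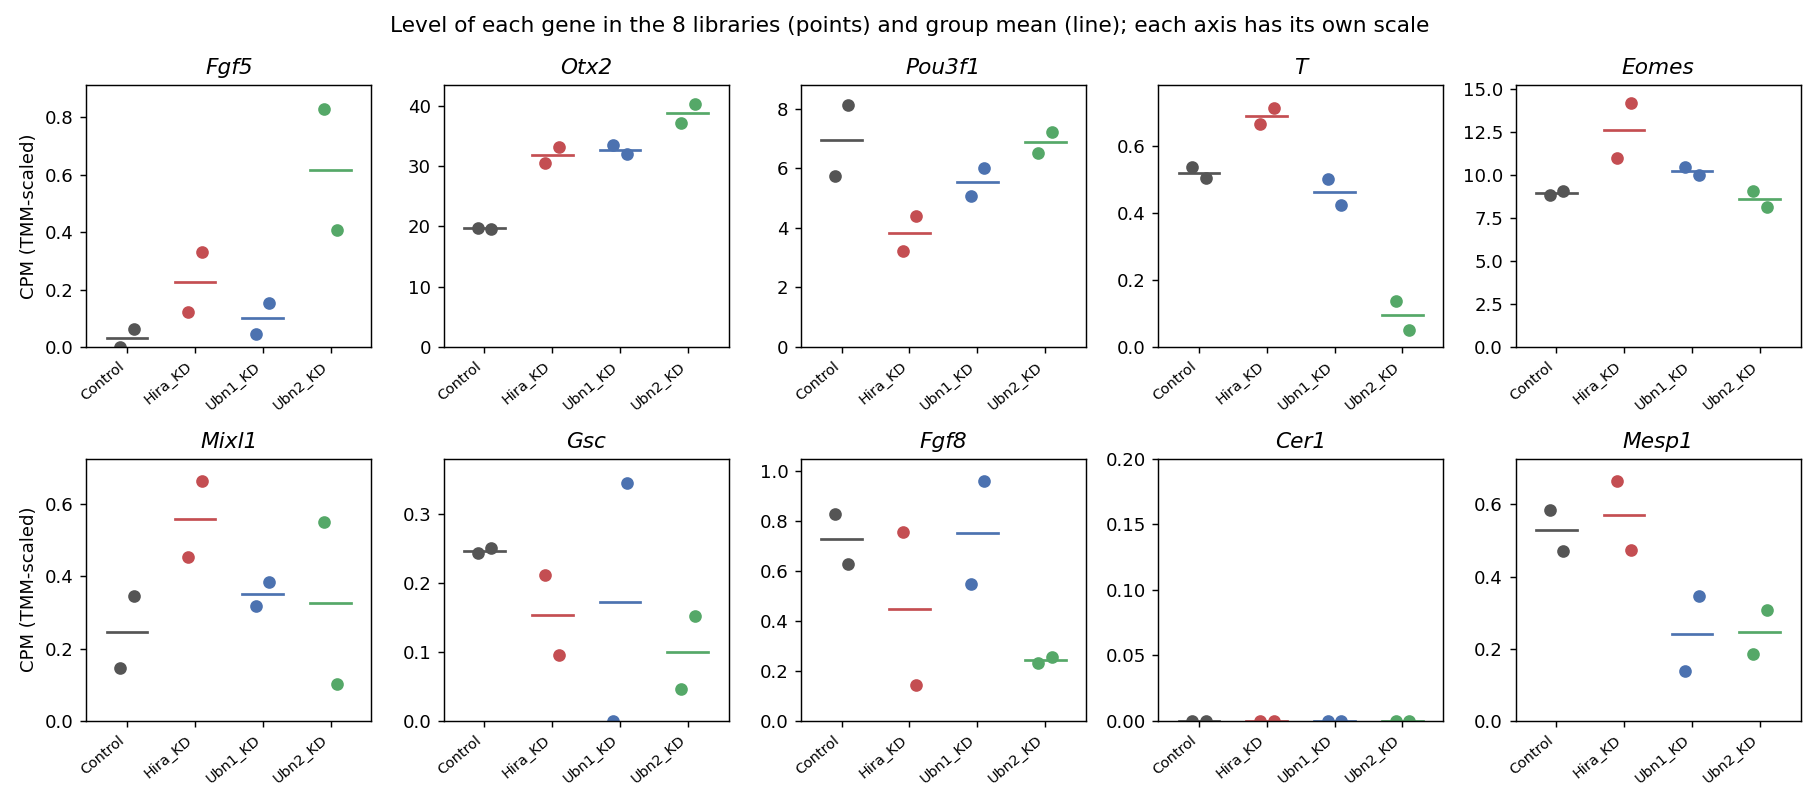
TMM-scaled CPM of each of the 10 genes in the 8 libraries (points) with group means (lines), each panel on its own scale from 0. Otx2 is higher in all 6 knockdown libraries than in controls, Pou3f1 is lowest in Hira_KD, T is lowest in Ubn2_KD, and Cer1 is at 0 throughout.

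Otx2 was the member called against control after all 3 depletions. It encodes a homeodomain factor that drives the exit from the naive state and later patterns the anterior epiblast and forebrain. On GRCm38 the gene spans chr14:48657677-48673819 on the minus strand. Control libraries gave 19.8 and 19.6 CPM (407 and 625 counts), Hira_KD 30.6 and 33.2 CPM, Ubn1_KD 33.5 and 32.0 CPM, and Ubn2_KD 37.2 and 40.4 CPM. Every knockdown library was above both controls, and both Ubn2_KD libraries were above the other 6. The fitted log2 fold change against control was 0.67 (SE 0.11, adjusted p = 7.71e-05) after Hira depletion, 0.73 (SE 0.12, adjusted p = 0.000114) after Ubn1 depletion and 0.97 (SE 0.11, adjusted p = 3.11e-07) after Ubn2 depletion, by the quasi-likelihood test of edgeR, with p-values adjusted by Benjamini-Hochberg over all genes. These correspond to 1.60-, 1.66- and 1.96-fold. The comparisons share the control libraries, so their common direction is not independent. Otx2 kept its call in all 12 alternatives to each of the 3 comparisons, although 1 of these, adjusted p alone, could not remove a call. Between knockdowns, Hira_KD lay below Ubn2_KD by a log2 difference of -0.28 (SE 0.10, adjusted p = 0.0377), which is under the fold limit of 1.5. Hira_KD and Ubn1_KD overlapped (-0.03, SE 0.11, adjusted p = 0.876), and Ubn2_KD against Ubn1_KD gave 0.24 (SE 0.10, adjusted p = 0.125). Annotated exons of Otx2 share 154 bases with the lincRNA Otx2os1 on the other strand, a neighbour named because of this overlap, which had 5 to 12 counts per library.

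**Figure D3:**
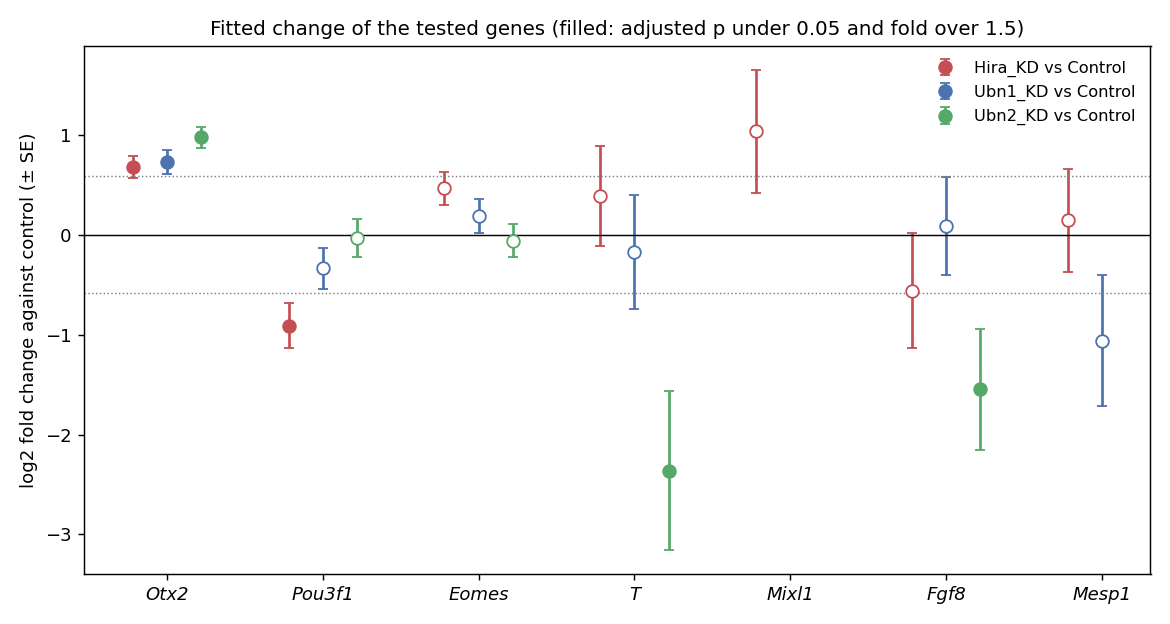
Fitted log2 fold change against control (points, bars ± SE) of the members that passed the filter on low counts in each comparison. Filled points were called, and dotted lines mark the fold limit of 1.5. Otx2 is filled in all 3 comparisons (0.67, 0.73 and 0.97), Pou3f1 in Hira_KD, and T and Fgf8 in Ubn2_KD.

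Hira-depleted ESCs were compared with controls to ask which members differ when the scaffold of the complex is reduced. Here 7 members passed the filter on low counts, and 2 were called (fold over 1.5 with an adjusted p under 0.05), Otx2 higher and Pou3f1 lower. Over all 19035 genes tested, 16.2% were called, 10.8% higher and 5.40% lower. The median log2 fold change of the 7 members was 0.39, and that of all genes 0.01. Mixl1 passed the filter through the Hira_KD libraries only, the group where it was higher, so this median is not a result about the members. Fgf5, Gsc and Cer1 were not tested.

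Pou3f1 (also Oct6), a POU-domain factor of the primed epiblast and later of neural and glial lineages, went against Otx2 after Hira depletion. This gene of a single exon lies on chr4:124656807-124660655, plus strand. Pou3f1 stood at 5.74 and 8.14 CPM in controls (118 and 259 counts), 3.24 and 4.41 CPM in Hira_KD (107 and 93 counts), 5.06 and 6.03 CPM in Ubn1_KD, and 6.53 and 7.24 CPM in Ubn2_KD. Both Hira_KD libraries were below the other 6, and the controls differed from each other more than the libraries of any knockdown did. The log2 fold change after Hira depletion was -0.91 (SE 0.23, adjusted p = 0.00401), a level 1.88-fold lower. Without the second control library it was -0.62 with an adjusted p of 0.11. After Ubn1 depletion it was -0.34 (SE 0.21, adjusted p = 0.353) and after Ubn2 depletion -0.03 (SE 0.19, adjusted p = 0.914). The direct comparison of Hira_KD with Ubn2_KD gave -0.86 (SE 0.22, adjusted p = 0.00797), so the level of Pou3f1 differed between these knockdowns. Without the first Hira_KD library that difference was -0.63, with an adjusted p of 0.0534. Hira_KD against Ubn1_KD gave -0.55 (SE 0.24, adjusted p = 0.102). The antisense gene Gm2164, named for its overlap with 330 bases of the exon, had 2 to 15 counts per library.

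Eomes, a T-box factor needed for definitive endoderm and mesoderm migration and also for trophoblast, had a smaller difference. The gene spans chr9:118478212-118486132 on the plus strand. Its levels were 8.86 and 9.08 CPM in controls, 11.0 and 14.2 CPM in Hira_KD, 10.5 and 10.0 CPM in Ubn1_KD, and 9.06 and 8.16 CPM in Ubn2_KD. Both Hira_KD libraries were above the other 6, but they lay far apart from each other. In Hira_KD the log2 fold change was 0.46 (SE 0.16, adjusted p = 0.0325), or 1.38-fold, which passed the adjusted p but not the fold limit. With DESeq2 the adjusted p was 0.107, and without the first Hira_KD library edgeR gave 0.65 with an adjusted p of 0.00382, past both limits. In the other knockdowns the values were 0.19 (SE 0.17, adjusted p = 0.553) in Ubn1_KD and -0.06 (SE 0.16, adjusted p = 0.8) in Ubn2_KD. Hira_KD against Ubn2_KD gave 0.55 (SE 0.17, adjusted p = 0.0205), again under the fold limit. Annotated exons of Eomes share 118 bases with the antisense gene Gm33460, named for this overlap, which had 26 and 42 counts in controls and 57 and 54 in Hira_KD. As no strand setting is given in the sources used here, reads of these genes cannot be told apart where they overlap. Trophoblast markers also differed in Hira_KD. Of 10 listed genes, 7 were tested, 4 were called higher and 1 lower, with a median log2 fold change of 1.12 over the tested genes. At least 1 of those called higher passed the filter on low counts only through the Hira_KD libraries, so this median is not a result about the list. Krt8 and Krt18, keratins of simple epithelium, rose by 1.12 (SE 0.11, adjusted p = 1.2e-07) and 1.31 (SE 0.14, adjusted p = 3.95e-07) on the log2 scale. Summed over the list, these markers had 155 and 178 CPM in Hira_KD and 110 to 122 CPM in the other 6 libraries. Their part in the Eomes values was not tested. Tpbpa, a marker of the placental spongiotrophoblast, was at 0 counts in every library.

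The remaining tested streak genes did not pass in Hira_KD. T (Brachyury, the T-box factor of the streak and notochord) had 11 and 16 counts in controls and 22 and 15 in Hira_KD, with a log2 fold change of 0.39 (SE 0.50, adjusted p = 0.587). Mixl1, a homeodomain factor of the streak, had 3 and 11 counts against 15 and 14, with a fitted value of 1.04 (SE 0.61, adjusted p = 0.203). The Hira_KD libraries did not overlap the controls for either gene, nor for Otx2, Pou3f1 and Eomes. This makes 5 of the 7 tested, while over all genes tested 67.0% did not overlap. Mixl1 passed the filter on low counts through the Hira_KD libraries only, so this number is not a result about the members. Mesp1, a basic helix-loop-helix factor of cardiac mesoderm precursors, had 12 and 15 counts against 22 and 10 (0.14, SE 0.52, adjusted p = 0.861). For Fgf8, the Fgf ligand of the streak, the counts were 17 and 20 against 25 and 3 (-0.56, SE 0.58, adjusted p = 0.488), and the 2 Hira_KD libraries fell on either side of the second control in CPM. Gsc, a homeodomain repressor of the anterior streak and organiser, gave 5 and 8 counts in controls and 7 and 2 in Hira_KD.

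Ubn1-depleted ESCs differed least from controls. Of the 6 members tested only Otx2 was called, against 3.09% of 18373 genes, 1.53% higher. The median over the 6 members was -0.04, and that over all genes 0.00. Mesp1 passed the filter on low counts through the controls only, the group where it was higher. Mesp1 had 3 and 9 counts in Ubn1_KD against 12 and 15 in controls, which gave -1.06 (SE 0.66, adjusted p = 0.362). T had 11 counts in each Ubn1_KD library (-0.17, SE 0.57, adjusted p = 0.901), and Fgf8 had 12 and 25 counts (0.09, SE 0.49, adjusted p = 0.947). Fgf5, Mixl1, Gsc and Cer1 were not tested, and their counts in Ubn1_KD were 1 and 4, 7 and 10, 0 and 9, and 0 and 0.

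In Ubn2-depleted ESCs the members were called in both directions. Of 5 members tested, 3 were called, Otx2 higher and T and Fgf8 lower, while 18.3% of all 18219 genes were called, 9.59% higher and 8.75% lower. T and Fgf8 passed the filter on low counts through the controls only, the group where they were higher. The number of members called is therefore not a result about the members when set beside the share over all genes. With DESeq2 only Otx2 was called, beside 13.2% of all genes. Pou3f1 and Eomes were the other tested members, and the medians were -0.06 over the 5 members and 0.00 over all genes. Fgf5, Mixl1, Gsc, Cer1 and Mesp1 were not tested.

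T lies on chr17:8434423-8442496, plus strand. Its CPM values were 0.536 and 0.503 in controls, 0.666 and 0.712 in Hira_KD, 0.502 and 0.422 in Ubn1_KD, and 0.138 and 0.0510 in Ubn2_KD. Behind the last were 3 counts and 1 count, so both Ubn2_KD libraries were at or under the floor and below every other library. The pooled counts, 4 against 27 in controls, gave a level 5.33-fold lower (95% interval from an exact Clopper-Pearson interval, 1.86 to 21.0, counting error only). The fitted log2 fold change was -2.36 (SE 0.79, adjusted p = 0.0221). This call did not hold when any of the 4 libraries was left out, with adjusted p-values between 0.0758 and 0.211, and DESeq2 gave no adjusted p for T. Against Ubn2_KD, Hira_KD was higher by 2.77 (SE 0.72, adjusted p = 0.00763), with 37 counts against 4, a difference lost without the first Hira_KD or the second Ubn2_KD library. Hira_KD against Ubn1_KD gave 0.58 (SE 0.53, adjusted p = 0.46).

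Fgf8, on chr19:45736798-45742915, minus strand, was the other streak gene called. It had 0.828 and 0.629 CPM in controls, 0.757 and 0.142 in Hira_KD, 0.547 and 0.960 in Ubn1_KD, and 0.230 and 0.255 in Ubn2_KD. Both Ubn2_KD libraries, with 5 counts each, were below the controls, but the second Hira_KD library was lower still. The log2 fold change of -1.55 (SE 0.60, adjusted p = 0.047) was just past the limit, and of 10 alternatives that tested it 1 kept the call, with adjusted p-values from 0.0475 to 0.286. Pooled counts of 10 against 37 gave a level 2.92-fold lower (95% interval 1.43 to 6.59).

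Fgf5, the ligand whose transcript appears across the epiblast as cells become primed, showed the opposite direction at very few reads. The gene spans chr5:98254184-98277030 on the plus strand. Counts were 0 and 2 in controls, 4 and 7 in Hira_KD, 1 and 4 in Ubn1_KD, and 18 and 8 in Ubn2_KD. Both Ubn2_KD libraries were above the other 6, and they differed from each other by a factor of 2.03 in CPM. The pooled counts, 26 against 2, gave a ratio of 16.5 (95% interval 4.12 to 143). The filter removed Fgf5 in this comparison. Fitted without the filter it gave a log2 fold change of 3.86 (SE 1.03, adjusted p = 0.00138), and in the same fit T was at -2.39 (adjusted p = 0.0378) and Fgf8 was not called (adjusted p = 0.0633). DESeq2 gave no adjusted p for Fgf5 and did not call it. Hira_KD gave a pooled ratio of 5.32 over controls (95% interval 1.16 to 49.4), with an adjusted p of 0.336 without the filter.

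The other members with few counts were not tested in Ubn2_KD. Mesp1 had 4 and 6 counts in Ubn2_KD against 12 and 15 in controls, a pooled level 2.13-fold lower (95% interval 1.00 to 4.94), and Gsc had 1 and 3 against 5 and 8. Mixl1 had 12 and 2 counts in Ubn2_KD and 3 and 11 in controls, with overlapping groups. The genes lie on chr7:79792241-79793788 (Mesp1), chr12:104471209-104473330 (Gsc) and chr1:180693043-180697034 (Mixl1), all on the minus strand. At this depth, differences of these genes were not detectable unless large.

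Direct comparisons between knockdowns asked whether the levels of the members differed. The extent of depletion was unequal, with Hira at 0.108 of its control level in Hira_KD. Ubn1 was at 0.490 in Ubn1_KD and Ubn2 at 0.538 in Ubn2_KD. Which subunit was depleted and how far it was depleted therefore cannot be told apart in these comparisons. Hira_KD against Ubn2_KD called 2 of 6 members, Pou3f1 lower and T higher in Hira_KD, against 17.6% of 18563 genes, 12.0% higher and 5.61% lower. T passed the filter on low counts there through the Hira_KD libraries only. By DESeq2 1 was called, Pou3f1, beside 13.1% of all genes. In Hira_KD against Ubn1_KD edgeR called 0 of 7 (12.7% over all genes), with 1 gene, Pou3f1, at an unadjusted p under 0.05. In Ubn2_KD against Ubn1_KD it called 0 of 4 (8.70% over all genes), with 2 genes, Otx2 and Fgf8, at an unadjusted p under 0.05. DESeq2 called 0 in both, beside 9.41% and 5.81% of all genes. Fgf8 there had a log2 difference of -1.64 (SE 0.61, adjusted p = 0.0787). Fgf8 passed the filter on low counts through the Ubn1_KD libraries only, the group where it was higher. Without the filter, Fgf5 was higher in Ubn2_KD than in Ubn1_KD by 2.53, with an adjusted p of 0.0331.

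**Figure D4:**
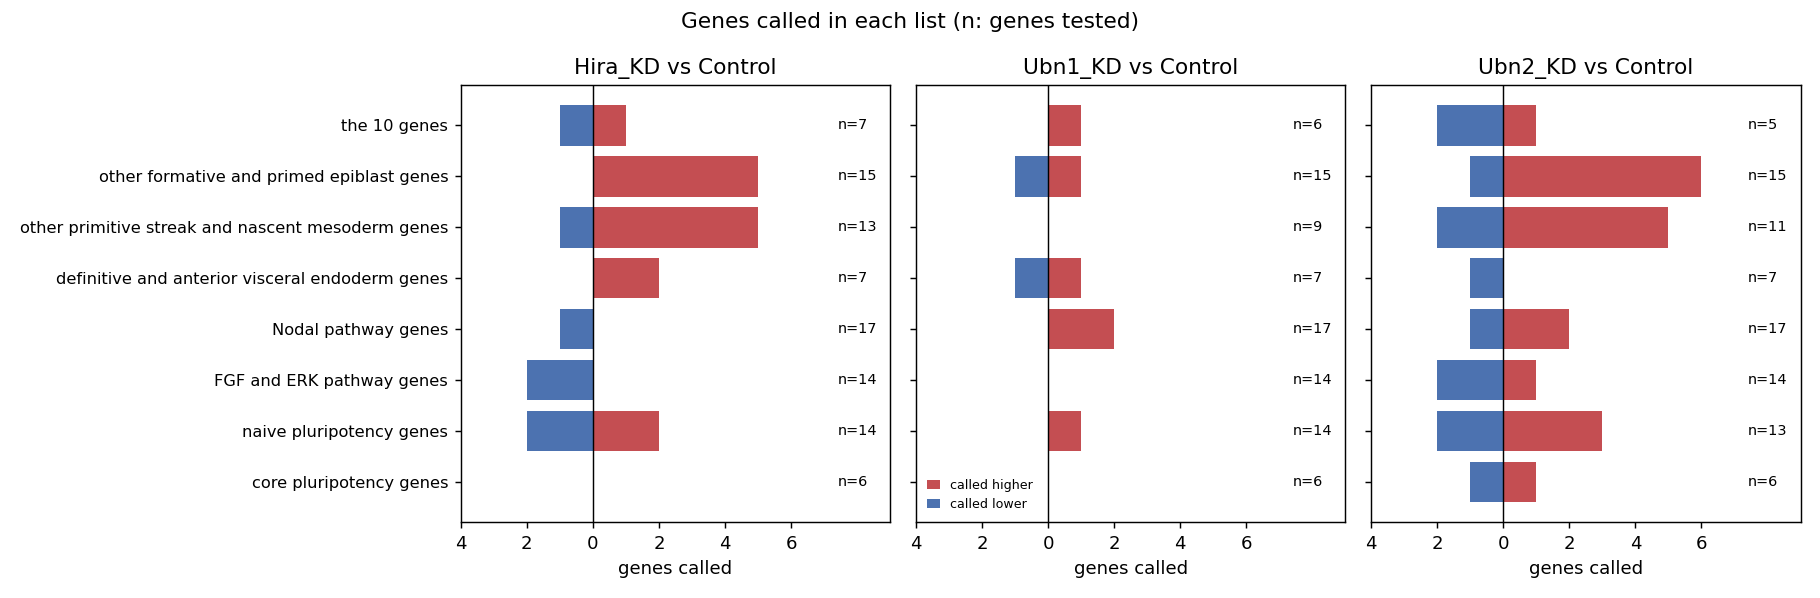
Number of genes called higher (right) or lower (left) against control in each list, with n the genes tested, for the 3 knockdowns. In Hira_KD and Ubn2_KD, 5 and 6 of 15 tested other formative and primed genes are called higher, and 0 and 1 lower. Of the members, 1 of 7 and 1 of 5 tested are called higher, and 1 and 2 lower. Over all genes tested, 10.8% are called higher and 5.40% lower in Hira_KD, and 9.59% and 8.75% in Ubn2_KD. T and Fgf8, the members called lower in Ubn2_KD, passed the filter on low counts through the controls only.

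Other genes of the same stages were counted to place the members. Of 15 other formative and primed epiblast genes, all tested, 5 were called higher and 0 lower in Hira_KD, 1 and 1 in Ubn1_KD, and 6 and 1 in Ubn2_KD. The medians were 0.18, -0.10 and 0.35 on the log2 scale, beside 0.01, 0.00 and 0.00 for all genes. Zic2, a zinc-finger factor of formative cells, was the list gene called in all 3, as Otx2 was. Its levels were 17.1 and 25.1 CPM in controls, 33.8 and 47.6 CPM in Hira_KD, 46.8 and 42.1 CPM in Ubn1_KD, and 49.7 and 47.9 CPM in Ubn2_KD. All knockdown libraries were above both controls, with log2 fold changes of 0.91 (SE 0.15), 1.06 (SE 0.13) and 1.19 (SE 0.13). Cdh2 (N-cadherin) rose by 1.32 in Hira_KD and by 0.89 in Ubn2_KD, and Sall2 by 0.76 and 1.26. Sox3 rose by 0.96 in Hira_KD, and its value in Ubn2_KD was 0.22 (adjusted p = 0.57). Foxd3, a forkhead factor of the epiblast, rose by 0.89 in Ubn2_KD, and its value in Hira_KD was 0.45 (adjusted p = 0.0656). Lef1, a nuclear effector of Wnt signalling, fell by 1.27 in Ubn1_KD and by 0.93 in Ubn2_KD, while Hira_KD gave 0.18 (adjusted p = 0.653).

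Among 17 other primitive streak and nascent mesoderm genes, 13 were tested in Hira_KD, 9 in Ubn1_KD and 11 in Ubn2_KD. In Hira_KD 5 were called higher and 1 lower, in Ubn1_KD 0 (2 at an unadjusted p under 0.05), and in Ubn2_KD 5 higher and 2 lower. By DESeq2, 2, 0 and 4 were called. The medians over the tested genes were 0.74, -0.01 and 0.76 on the log2 scale. Several genes called higher in Hira_KD, Evx1 among them, passed the filter on low counts only through the Hira_KD libraries. In Ubn2_KD, Evx1 passed through the Ubn2_KD libraries only. These numbers and medians are therefore not a result about the list. Kdr, the VEGF receptor of mesoderm and endothelium, rose by 1.62 in Hira_KD and by 2.56 in Ubn2_KD. Evx1, a homeobox gene of the posterior streak, rose by 3.11 in Hira_KD and by 3.13 in Ubn2_KD, from 0.0974 and 0.157 CPM in controls to 1.12 and 1.28 CPM and to 1.43 and 0.969 CPM. Snai1, Wnt8a and Mesp2 were the other genes called higher in Ubn2_KD, by 0.94, 1.61 and 0.76. The 2 called lower were Cdx1, by 1.40 (SE 0.17, adjusted p = 1.42e-06), and Axin2, by 1.02 (SE 0.16, adjusted p = 4.79e-05). Cdx1 had 12.7 and 13.0 CPM in controls and 4.64 and 5.15 CPM in Ubn2_KD, and Axin2 13.8 and 19.2 against 8.09 and 8.36 CPM. The Control and Ubn2_KD values of both genes did not overlap.

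Of 10 endoderm genes, 7 were tested in each knockdown. In Hira_KD 2 were called higher, Cxcr4 (0.79) and Sox17 (1.18). In Ubn1_KD Lefty1 was higher (0.75) and Gata6 lower (-1.10). In Ubn2_KD 0 were called higher and 1 lower. DESeq2 called 0 of the 7 in Hira_KD, 1 in Ubn1_KD and 0 in Ubn2_KD. Cer1, at 0, belongs with this group.

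Signalling genes upstream of the streak were tested in full. Of 17 Nodal pathway genes, 1 was called lower in Hira_KD, 2 higher in Ubn1_KD, and 2 higher and 1 lower in Ubn2_KD. The ligand Nodal had 74.5 and 78.2 CPM in controls and 126 in each Ubn2_KD library, a rise of 0.72 (SE 0.07, adjusted p = 7.17e-08). It was at 104 and 108 CPM in Hira_KD and 102 in both Ubn1_KD libraries, which passed the adjusted p (0.000106 and 0.00452) but not the fold limit. Its co-receptor Tdgf1 (Cripto) fell by 0.78 in Ubn2_KD, and the related ligand Gdf3 rose by 0.65. The Nodal antagonists Lefty2 and Lefty1 rose in Ubn1_KD by 1.17 (SE 0.10, adjusted p = 3.07e-09) and 0.75 (SE 0.12, adjusted p = 0.000144). In the direct comparisons with Ubn1_KD, the log2 difference of Lefty2 was -1.58 for Hira_KD (adjusted p = 3.06e-11) and -1.48 for Ubn2_KD (adjusted p = 7.62e-08).

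Of 14 FGF and ERK pathway genes, 2 were called lower in Hira_KD, 0 in Ubn1_KD, and 1 higher and 2 lower in Ubn2_KD. In Ubn1_KD DESeq2 also called 0, and 3 had an unadjusted edgeR p under 0.05. Fgf4, the main autocrine Fgf of ESCs, had 236 and 238 CPM in controls, 160 and 156 CPM in Hira_KD, and 158 and 151 CPM in Ubn2_KD. It fell by 0.60 (SE 0.07, adjusted p = 2.89e-06) and 0.62 (SE 0.07, adjusted p = 4.16e-07). The receptor Fgfr3 fell by 0.97 and 1.01 in the same knockdowns. Dusp4, a phosphatase induced by ERK, rose by 0.66 in Ubn2_KD.

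Genes of the naive state that precedes the primed stage were called in both directions. Of 14 naive pluripotency genes, 2 were called higher and 2 lower in Hira_KD, 1 higher in Ubn1_KD, and 3 higher and 2 lower among 13 tested in Ubn2_KD. Nr0b1, a nuclear receptor that represses transcription, rose by 0.60 in Hira_KD and 1.00 in Ubn2_KD, Tcl1 fell by 0.64 and 0.77, and Prdm14, a repressor of epiblast genes, rose by 0.65 in Hira_KD, 0.67 in Ubn1_KD and 0.83 in Ubn2_KD. Of 6 core pluripotency genes, 0 were called by edgeR or DESeq2 in Hira_KD and in Ubn1_KD, where 5 and 4 had an unadjusted edgeR p under 0.05. In Ubn2_KD, Sall4 rose by 0.63 and Lin28a fell by 1.17.

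Lists of other lineages give the setting of these values. Of 10 primitive endoderm markers, 1 was called higher in Hira_KD (Sox17), 2 lower in Ubn1_KD (Gata6 and Pdgfra) and 0 in Ubn2_KD by edgeR or DESeq2, where 4 had an unadjusted edgeR p under 0.05. Of 4 neural progenitor markers tested, Nes rose by 1.39 in Hira_KD and by 0.90 in Ubn2_KD. In Ubn2_KD 10 of 11 heart muscle markers were called higher and 1 lower, and 2 of 3 tested red blood cell markers higher. In Hira_KD, 6 heart muscle markers and 1 red blood cell marker were tested. Markers tested in Ubn2_KD but not in Hira_KD passed the filter on low counts through the Ubn2_KD libraries, where they were higher. Of 6 fibroblast markers tested in Ubn2_KD, 3 were called higher and 2 lower, among the latter Pdgfrb (-1.48), which was also lower in Hira_KD (-0.90). In Ubn2_KD 3 of 7 tested trophoblast markers were called lower, Ascl2 (-2.64), Krt8 (-0.59) and Krt18 (-0.92), and 1 higher. Ascl2 was called lower in Hira_KD (-1.47) and Ubn1_KD (-1.30) as well. Their part in the values of the members was not tested.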

How the data were processed

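RNA-seq was measured in 8 libraries of mouse E14 ESCs. Per the submitters' processing notes and the study's methods, the authors trimmed reads with Trim Galore, aligned them to GRCm38 with STAR and deposited raw counts per gene from featureCounts, in 3 tables that repeat the same control libraries (0 differing values). Versions and strand setting are not given in the sources used here. Of 55418 genes, 21460 had no count in any library.

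Libraries were grouped by their titles. Each knockdown was compared with control, and the knockdowns with each other, in fits of 4 libraries with edgeR 4.0.16 in R 4.3.3 (TMM, filterByExpr, quasi-likelihood test, Benjamini-Hochberg adjustment over all genes tested). Calls required a fold over 1.5 beside an adjusted p under 0.05. The SE was obtained from the log2 fold change and its F statistic. CPM use TMM-scaled totals from one normalization of all 8 libraries, and lengths are annotated exons of GENCODE M21. Ratios of pooled counts have exact Clopper-Pearson 95% intervals, and 3 counts were taken as the floor. Promoters come from RefSeq (GRCm38.p6).

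The 10 members and all lists were chosen with earlier results of these data known. Named beside the members were, by rule, up to 3 genes per list called against control with the smallest adjusted p, the listed genes at 0 in all libraries, and the targeted genes. Nodal in Hira_KD and Ubn1_KD, Snai1, Wnt8a and Mesp2, the values of other list genes in knockdowns where they fell outside this rule, and genes overlapping a member, were added after their values were seen. Some list genes are not reported here by name. Alternatives were DESeq2 1.42.0 (Wald test), its size factors, no filter, a minimum of 10 counts per library, a joint fit of the 8 libraries, a block for replicate number (with 4 or 8 libraries), adjusted p alone, and each library left out in turn. Models were also run on simulated counts, with changes placed only in genes of higher counts. That run does not cover the members with few counts. Other tools were Python 3.11.15, pandas 2.3.3, numpy 2.4.6, scipy 1.17.1 and matplotlib 3.10.9.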

Additional observations from a re-analysis of the deposited data

Results flagged for a closer look

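The level of 2 members differed between knockdowns in a direct test. Pou3f1 was lower in Hira_KD than in Ubn2_KD by a log2 difference of -0.86 (SE 0.22, adjusted p = 0.00797 by edgeR, 0.0227 by DESeq2), with both Hira_KD libraries below both Ubn2_KD libraries. Over its alternatives the adjusted p ran from 0.000405 to 0.0534. T was higher in Hira_KD than in Ubn2_KD by 2.77 (SE 0.72, adjusted p = 0.00763 by edgeR), from 37 against 4 counts, with adjusted p-values from 0.00403 to 0.0958 over its alternatives and none given by DESeq2. T passed the filter on low counts through the Hira_KD libraries only, the group where it was higher. Both contrasts use groups of 2 libraries, and the Ubn2_KD libraries are those with heart muscle and red blood cell transcripts, whose part in these differences was not tested. The extent of depletion also differed between Hira_KD and Ubn2_KD, and cannot be told apart from which subunit was depleted.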

How the results depend on the processing

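Among the recomputed log2 fold changes of members, 330 kept their direction and side of the limits, 17 lost a call, 3 gained one and 10 reversed, the last all when a library was left out. Otx2 kept its call against control in every alternative, at 0.61 to 0.73 in Hira_KD, 0.68 to 0.76 in Ubn1_KD and 0.92 to 1.04 in Ubn2_KD. The alternative of adjusted p alone could not remove a call. Members called in Ubn2_KD against control numbered 3, but 1 with DESeq2 and 1 with at least 10 counts in every library, which leaves T and Fgf8 untested. Without the filter there were also 3, with Fgf5 in place of Fgf8. Hira_KD against Ubn2_KD gave 2, 1 with DESeq2, 1 with at least 10 counts in every library and 4 by adjusted p alone, and Ubn2_KD against Ubn1_KD gave 0, and 1 (Fgf5) without the filter. With a library left out, members called ranged from 1 to 3 in Hira_KD against control (1 without the second control library), from 1 to 2 in Ubn2_KD against control (1 without the first Ubn2_KD library) and from 1 to 3 in Hira_KD against Ubn2_KD (1 without the first Hira_KD library, Eomes, and 1 without the second Ubn2_KD library, Pou3f1). Log2 fold changes that changed sign with a library left out were, against control, Mesp1 (-0.15 to 0.33) and Fgf8 (-2.31 to 0.0566) in Hira_KD, Fgf8 in Ubn1_KD (-0.39 to 0.41), and Pou3f1 (-0.25 to 0.26) and Eomes (-0.14 to 0.0125) in Ubn2_KD. Between knockdowns they were Mixl1 in Hira_KD against Ubn2_KD (-0.0048 to 2.37) and Otx2 in Hira_KD against Ubn1_KD (-0.0910 to 0.0265). Over all genes, DESeq2 called fewer than edgeR in every comparison. Against control it called 2214 in Hira_KD where edgeR called 3077, 297 in Ubn1_KD where edgeR called 568, and 2422 in Ubn2_KD where edgeR called 3343. It called 2390 in Hira_KD against Ubn2_KD where edgeR called 3264, and 1592 in Hira_KD against Ubn1_KD where edgeR called 2386. In Ubn2_KD against Ubn1_KD it called 1030 where edgeR called 1584. The cause of these differences between settings was not tested.

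The replicate numbers were not shown to pair the libraries, since deviations of same-numbered libraries correlated between -0.0529 and 0.0664 over 19264 genes. With the replicate block, members called were 2 in Hira_KD, 1 in Ubn1_KD and 2 in Ubn2_KD against control, where Fgf8 lost its call. Depth limits T, Fgf5, Fgf8, Gsc, Mixl1 and Mesp1, which had 25 counts or fewer per library.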
